A study of Mus musculus with 6 samples.

Results

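The genes described here encode the secreted, surface and first intracellular parts of the Wnt pathway, measured in mouse fat with and without CNOT3 in its adipocytes. They were chosen by name: every gene whose symbol starts with Wnt, Fzd, Sfrp, Dkk or Rspo followed by a digit, together with Axin1, Axin2, Lrp5, Lrp6, Tcf7l2, Lef1, Ctnnb1, Nkd1, Nkd2, Wif1, Frzb, Apcdd1 and Notum. The rule found 55 of the 18193 genes that had a probe set of their own on the array, and 35 of the 55 were bright enough to be tested. One of the 55, Fzd10os, is not a receptor: the name marks an RNA from the strand opposite to Fzd10.

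Wnt proteins are secreted, lipid-modified ligands that bind Frizzled receptors and, for the branch that acts through beta-catenin, the co-receptors LRP5 and LRP6. Ligand binding stops a complex built on AXIN from marking beta-catenin for destruction, and beta-catenin then works with TCF and LEF factors on target genes. R-spondins strengthen the signal at the cell surface, whereas SFRP, DKK, WIF1, NOTUM and APCDD1 proteins restrain it outside the cell. In fat tissue, signalling through beta-catenin is known for holding precursor cells back from becoming adipocytes, and WNT5A and its decoy SFRP5 are known as signals that mature fat releases.

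Epididymal white adipose tissue came from 6 mice of the C57BL/6 strain at 8 weeks of age, with 1 Affymetrix array per mouse. In 3 mice (CNOT3KO) Cnot3, which encodes a core subunit of the mRNA-deadenylating CCR4-NOT complex, was deleted by Cre recombinase expressed from the adiponectin promoter, so the deletion is directed to adipocytes and not to the vessel, immune, precursor and other cells of the pad. The other 3 mice (WT) are labelled wild type and control, and the labels do not say whether they carried Cre or a floxed allele. The comparison asks which Wnt pathway mRNAs differ in fat whose adipocytes have lost CNOT3.

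Values are MAS5 signals in arbitrary units, scaled to a common level on every array by the authors, and levels of different genes are not compared because each probe set has its own response. Median signals of the 6 arrays lay between 82.1 and 92.9, and having 3 arrays in each group limits the precision. Cnot3 itself read 305, 293 and 305 in WT and 194, 229 and 179 in CNOT3KO, which was lower (log2 difference -0.54, SE 0.14, limma adjusted p = 0.0131). Adipocyte markers were present in both groups, with a summed signal of 10 genes between 157543 and 198937 in WT and between 138316 and 166939 in CNOT3KO. All p-values below are from limma fitted across 12769 genes and adjusted by the method of Benjamini and Hochberg, with 0.05 as the threshold, and differences are CNOT3KO minus WT on the scale of log2(signal + 22.5). In RNA of a whole tissue, fewer cells of a type and less RNA per cell cannot be told apart.

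The Wnt ligand Wnt11, the receptor Fzd4, the secreted decoy Sfrp5 and the membrane inhibitor Apcdd1 were among 11 members that fell in the knockout fat pad. Sfrp1 and Axin1 were the 2 that rose. The receptor Fzd5 was also among the 11, although its 2 probe sets separated the groups in opposite directions. The other 22 tested members did not pass. Calls were made for 13 of 35 tested members, or 37.1%, close to the 40.1% of all tested genes that were called. By direction, 31.4% of the tested members were lower and 5.71% higher, beside 16.9% lower and 23.2% higher among all tested genes. The median log2 difference was -0.15 over the 35 members and 0.02 over all tested genes. Groups did not overlap in 13 of the 35, beside 51.7% of all tested genes, with CNOT3KO below WT in 10, beside 22.7% of all tested genes, and above WT in 3, beside 29% of all. With arrays centred on the median of tested genes, the member counts became 11 lower and 1 higher, Axin1 losing its call, while the share of all called genes that were higher went from 57.8% to 45.3%.

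**Figure D1:**
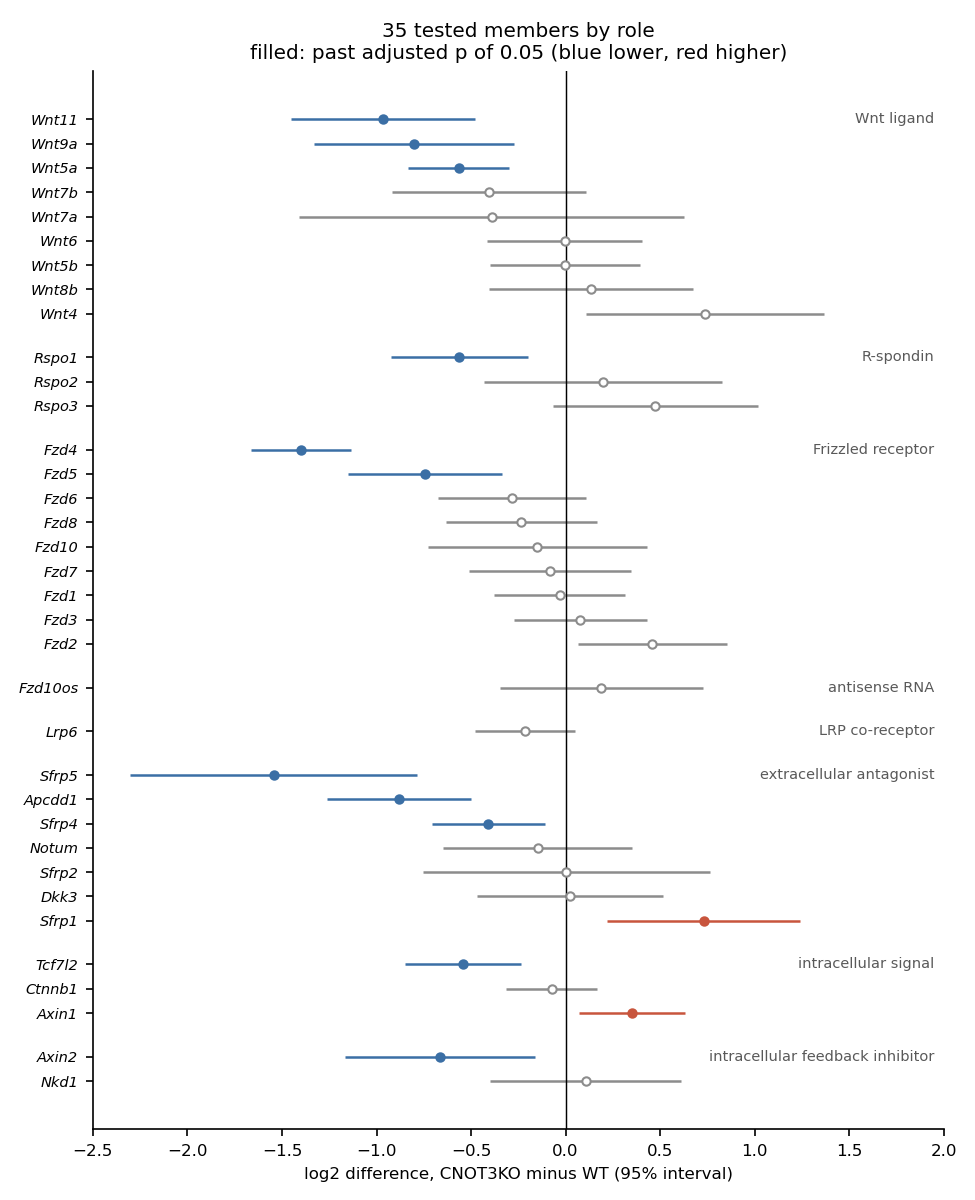
Log2 difference, CNOT3KO minus WT, for the 35 tested members in groups by role, with 95% intervals from limma. Filled points passed an adjusted p of 0.05 (blue lower, red higher); 11 filled points lie left of 0 and 2 right of it.

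Promoters of the 3 members with the steepest falls among those tested, Sfrp5, Fzd4 and Wnt11, are shown so that their start regions can be set beside each other for the motif that TCF and LEF factors bind; they were chosen after their values were seen. Each runs from 250 bases before to 50 bases after an annotated start, 5′ to 3′ on the gene's own strand, from RefSeq on build GRCm38.p6. They lie at chr19:42202203-42202502 (minus strand), chr7:89404116-89404415 (plus strand) and chr7:98834862-98835161 (plus strand, the start of Wnt11 that holds the motif, of 2 listed). Capitals mark the letters CTTTGAT or CTTTGAA on either strand.
Sfrp5: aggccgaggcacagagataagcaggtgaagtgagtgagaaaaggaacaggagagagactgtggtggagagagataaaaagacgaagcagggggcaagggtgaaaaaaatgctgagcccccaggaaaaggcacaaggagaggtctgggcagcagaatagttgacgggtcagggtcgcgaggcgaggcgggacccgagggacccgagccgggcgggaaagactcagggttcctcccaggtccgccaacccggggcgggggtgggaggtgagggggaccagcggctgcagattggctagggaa
Fzd4: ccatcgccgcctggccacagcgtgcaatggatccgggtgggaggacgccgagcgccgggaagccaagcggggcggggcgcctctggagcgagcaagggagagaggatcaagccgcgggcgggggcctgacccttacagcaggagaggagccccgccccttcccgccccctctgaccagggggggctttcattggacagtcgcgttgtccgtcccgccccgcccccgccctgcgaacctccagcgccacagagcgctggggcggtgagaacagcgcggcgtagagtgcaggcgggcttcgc
Wnt11: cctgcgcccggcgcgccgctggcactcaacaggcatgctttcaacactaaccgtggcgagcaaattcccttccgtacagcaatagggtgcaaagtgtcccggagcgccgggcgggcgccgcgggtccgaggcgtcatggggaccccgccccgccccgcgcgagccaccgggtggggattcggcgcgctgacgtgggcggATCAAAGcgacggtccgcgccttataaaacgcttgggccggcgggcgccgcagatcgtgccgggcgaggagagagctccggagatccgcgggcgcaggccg

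The Wnt11 promoter held CTTTGAT once, on the opposite strand, and the other 2 promoters held neither motif. On the strand shown this match reads ATCAAAG and begins at position -51. Promoters were matched by symbol for 35 of the 55 members, with 43 starts among them. A match was found in 3 of the 43, of Wnt11, Wnt5b and Dkk1, or 6.98%, beside 8.65% of all 32851 promoters of this length in the table. Of the 8 members that fell and had a promoter in the table, 1 held a match at any of its starts, or 12.5%, beside 9.88% of all genes in the table and 7.24% of the tested ones. A match is a run of letters and not a binding site, and its absence from this window says nothing about the factor.

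Among the 19 Wnt ligands, 9 were tested, 3 fell (33.3%) and none rose, beside 16.9% lower and 23.2% higher among all tested genes. Wnt11, a ligand used mainly in signalling without beta-catenin, read 159.7, 120.4 and 121 in WT and 44.7, 76.0 and 53.5 in CNOT3KO. All 3 knockout mice lay below all WT mice, and the log2 difference was -0.96 (SE 0.22, adjusted p = 0.00659 from limma). The size of this fall depends on the offset, at -0.60 when the median of all values was added before taking logs, and its call held.

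Wnt5a, the other ligand best known outside the beta-catenin branch, read 736, 606 and 696 in WT and 472, 446 and 434 in CNOT3KO. The groups did not overlap and the knockout mice were closely spaced (log2 -0.57, SE 0.12, limma adjusted p = 0.00485). The probe sets of Wnt5a disagreed, however. A second read 98.5, 101 and 122 in WT and 78.2, 93.2 and 62.3 in CNOT3KO (log2 -0.38, limma adjusted p = 0.160), and the third read 236, 152 and 168 in WT and 193, 293 and 179 in CNOT3KO (log2 0.22, limma adjusted p = 0.457). Averaging its probe sets gave -0.28 without a call, so the fall of Wnt5a rests on 1 of its 3 tested probe sets.

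Wnt9a read 242, 359 and 360.1 in WT and 121, 238 and 173 in CNOT3KO. The lowest WT mouse and the highest knockout mouse nearly met (log2 -0.80, SE 0.24, limma adjusted p = 0.0226), and the call was lost without WT mouse 2 (-0.71), WT mouse 3 (-0.71) or CNOT3KO mouse 1 (-0.58), and when both its probe sets were averaged (-0.45). Wnt4 went the other way without passing, with 28.1, 38.5 and 68.2 in WT and 67.8, 118 and 79.8 in CNOT3KO. Its highest WT mouse just exceeded its lowest knockout mouse (log2 0.74, 95% interval 0.11 to 1.37, limma adjusted p = 0.0622). Without WT mouse 3 Wnt4 passed (log2 0.97, limma adjusted p = 0.0249), as it did with quantile normalization (0.80) or without a variance trend (adjusted p = 0.0479 in limma). However, its WT mean of 44.9 was under the 51.6 needed for a test. Wnt4 was thus tested only because of its knockout signal, and its fold depends on the offset.

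Wnt5b and Wnt6 read almost alike in both groups. Wnt5b gave 104 ± 12.5 in WT and 104 ± 8.46 in CNOT3KO (SD, n = 3 each), with a 95% interval of -0.40 to 0.40 for the log2 difference. Wnt6 gave 129.7 ± 23.0 and 128 ± 13.0 (SD, n = 3 each), with an interval of -0.41 to 0.41. The intervals of Wnt7a (-1.41 to 0.63), Wnt7b (-0.92 to 0.11) and Wnt8b (-0.41 to 0.68) were wider. Wnt7b passed without WT mouse 3 (log2 -0.65, limma adjusted p = 0.0281). The other 10 ligands, Wnt1, Wnt2, Wnt2b, Wnt3, Wnt3a, Wnt8a, Wnt9b, Wnt10a, Wnt10b and Wnt16, were below the signal needed for a test. Wnt10b, the ligand best known for blocking adipocyte formation, read between 5.11 and 9.16 on all 6 arrays, too dim to show a difference. Wnt2 read 19.5, 17.9 and 37.2 in WT and 42.9, 32.1 and 54.4 in CNOT3KO, with overlap.

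Of the 4 R-spondins, 3 were tested, 1 fell (33.3%) and none rose, beside 16.9% lower and 23.2% higher among all tested genes. Rspo1 fell from 662, 718 and 739.9 in WT to 494, 577 and 365 in CNOT3KO (log2 -0.56, SE 0.16, limma adjusted p = 0.0204). The groups did not overlap, but the call was lost without WT mouse 2 (-0.55) or WT mouse 3 (-0.53). Rspo3 read 118, 168 and 129 in WT and 157, 302 and 166 in CNOT3KO, with CNOT3KO mouse 2 standing above the rest and the difference short of the test (log2 0.48, 95% interval -0.07 to 1.02). Rspo2 did not pass (log2 0.20) and Rspo4 was not tested.

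Of 10 Frizzled receptors, 9 were tested, 2 fell (22.2%) and none rose, beside 16.9% lower and 23.2% higher among all tested genes. Fzd4, which binds Wnt proteins and also the ligand Norrin and is known for its part in vessel growth, read 4889.9, 6093 and 6351 in WT and 2235, 2069 and 2193 in CNOT3KO. The highest knockout mouse lay far below the lowest WT mouse, and the fit gave a log2 difference of -1.40 with SE 0.12 (limma adjusted p = 3.82e-05). All 3 tested probe sets of Fzd4 were called lower, the other 2 with log2 differences of -0.81 and -1.23. Endothelial markers moved with it: 11 of 12 were lower (91.7%), beside 16.9% of all tested genes. Their summed signal lay between 20663 and 20869 in WT and between 7365 and 8713 in CNOT3KO. The part of vessel cells in the fall of Fzd4 was not tested.

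Fzd5 read 481, 310.3 and 424 in WT and 248, 193 and 251 in CNOT3KO. The groups did not overlap (log2 -0.74, SE 0.18, limma adjusted p = 0.00963). However, its second probe set read 60.7, 43.0 and 61.7 in WT and 94.1, 80.0 and 65.1 in CNOT3KO. That difference went in the other direction, also without overlap, and did not pass (log2 0.40). Averaged, the 2 probe sets gave -0.17. Fzd2 read 131, 105 and 112 in WT and 140.0, 187 and 178 in CNOT3KO, with no overlap but short of the test (log2 0.46, 95% interval 0.07 to 0.85, limma adjusted p = 0.0628). Its 3 probe sets also disagreed, at 0.63 with a call, 0.46, and -0.28. With quantile normalization (0.56) or without a variance trend Fzd2 passed.

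Fzd1, Fzd3, Fzd6, Fzd7, Fzd8 and Fzd10 had log2 differences between -0.28 and 0.08, and none passed. Fzd1, for example, read 1280.1, 1425 and 1854 in WT and 1266, 1520.3 and 1648 in CNOT3KO, with a 95% interval of -0.38 to 0.32. Fzd9 was not tested. The antisense RNA Fzd10os did not pass (log2 0.19). Of the co-receptors, Lrp6 read 1152, 1449 and 1372 in WT and 1197, 1129 and 1073 in CNOT3KO (log2 -0.22, 95% interval -0.48 to 0.05). Lrp5 was below the signal needed for a test, with 73.9, 56.1 and 85.8 in WT and 32.4, 16.2 and 24.9 in CNOT3KO. All knockout values of Lrp5 lay below all WT values, and with no filter on dim genes it was called lower (log2 -1.01, SE 0.22, limma adjusted p = 0.0122).

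**Figure D2:**
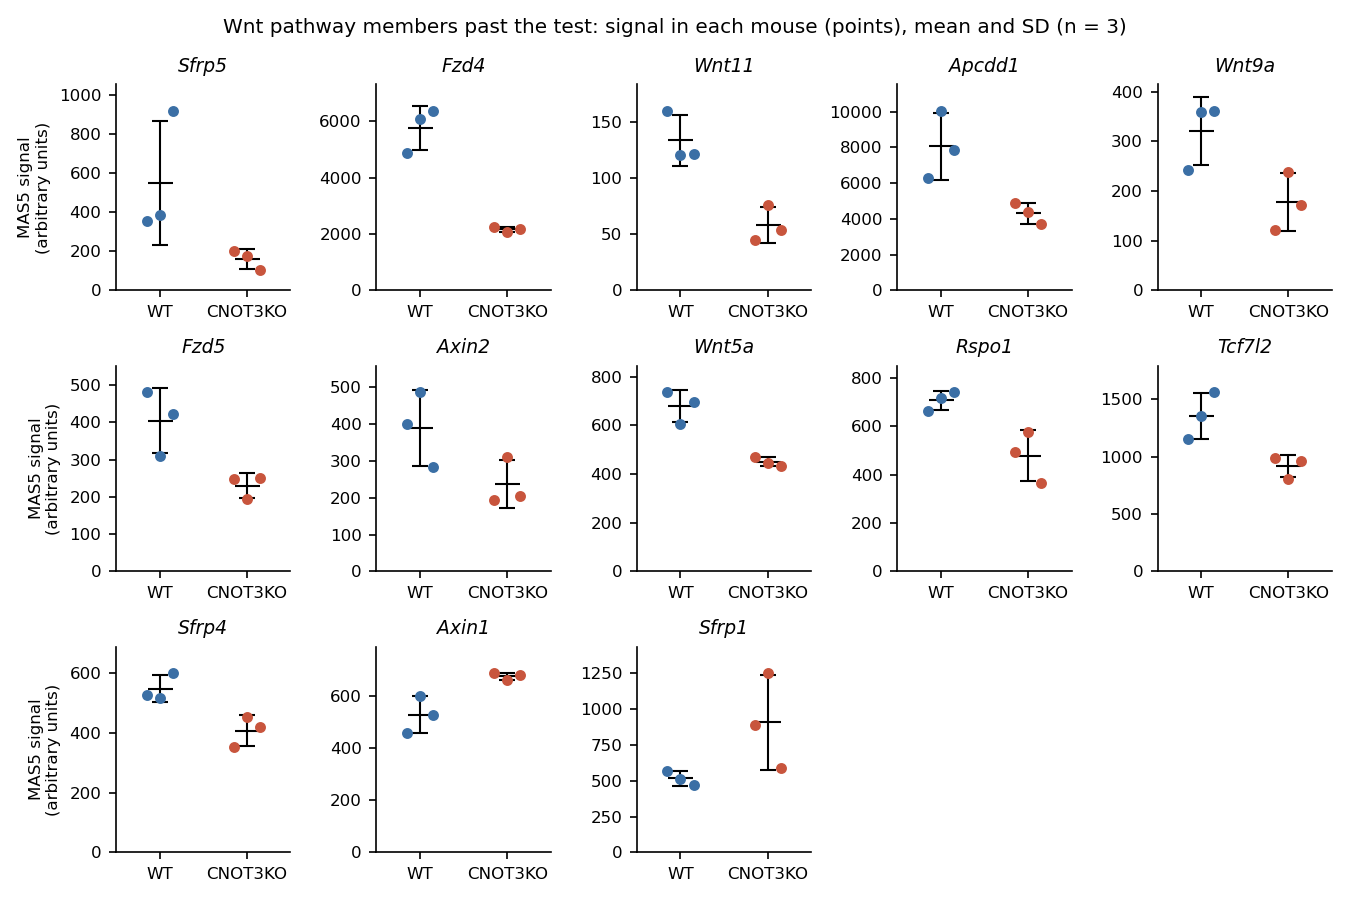
MAS5 signal of the 13 called members in each of the 3 WT (blue) and 3 CNOT3KO (red) mice, with the mean and SD of each group; every axis starts at 0. Groups overlap only for Axin2, and the WT spread of Sfrp5 comes from 1 mouse at 919 beside 355 and 385.

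The secreted decoys of the SFRP family, which bind Wnt proteins, went in both directions. Sfrp5 read 355, 385 and 919 in WT and 202, 178 and 106 in CNOT3KO. All knockout mice were below all WT mice, and the WT mice were far apart (log2 -1.54, SE 0.34, limma adjusted p = 0.00571). Without WT mouse 3 the difference was -1.12 and still called. The second probe set of Sfrp5 did not pass (log2 -0.70), and the mean of both gave -1.12 with limma adjusted p = 0.0582.

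Sfrp1 read 568, 509.9 and 469 in WT and 888, 1247 and 587 in CNOT3KO. Every knockout mouse was above every WT mouse, CNOT3KO mouse 3 only just (log2 0.73, SE 0.23, limma adjusted p = 0.0291). Of its 4 tested probe sets 3 were called higher, by 0.56, 0.73 and 1.01, and the remaining one read 0.41. The call was lost without WT mouse 2 (0.72), WT mouse 3 (0.67), CNOT3KO mouse 1 (0.71) or CNOT3KO mouse 2 (0.47), and also without a variance trend or a filter.

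Sfrp4 read 525, 516 and 598 in WT and 351, 451 and 418 in CNOT3KO, without overlap (log2 -0.41, SE 0.13, limma adjusted p = 0.0350). That call was lost whichever WT mouse was left out (-0.45 to -0.35), as well as without CNOT3KO mouse 1 (-0.31), CNOT3KO mouse 3 (-0.43) or a filter. Sfrp2 read 343, 330.5 and 204 in WT and 178, 533 and 243 in CNOT3KO, where CNOT3KO mouse 2 was the highest of all 6 and the 95% interval ran from -0.76 to 0.77. Frzb, the remaining SFRP relative, was not tested. CNOT3KO mouse 2 was thus the highest array for Sfrp1, Sfrp2 and Rspo3. The same mouse was highest for Wnt4, Fzd2, Nkd1, Dkk3 and the untested Wif1, among others, but not for Axin1.

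Apcdd1, a membrane protein that restrains Wnt signalling at the receptors, read 6288, 10008 and 7843 in WT and 4872, 4359 and 3687 in CNOT3KO. The groups did not overlap (log2 -0.88, SE 0.17, limma adjusted p = 0.00292), and all 5 tested probe sets were called lower, with log2 differences between -1.17 and -0.84. Notum, an enzyme that removes the lipid from Wnt proteins, read 73.7 ± 16.3 in WT and 63.8 ± 10.3 in CNOT3KO (SD, n = 3 each; log2 -0.15, 95% interval -0.65 to 0.35). Dkk3 did not pass (log2 0.02, 95% interval -0.47 to 0.51), and Dkk1, Dkk2 and Dkk4, the antagonists of the LRP co-receptors, were not tested, with signals between 3.65 and 52.0. Wif1, a secreted Wnt-binding inhibitor, was also too dim over the 6 arrays for the test, at 8.93, 1 and 5.03 in WT and 44.6, 90.4 and 45.0 in CNOT3KO. The 2 groups of Wif1 lay well apart, a signal of 1 being the lowest value in the deposited table, and with no filter it was called higher (log2 1.55, SE 0.25, limma adjusted p = 0.0029). Any fold for Wif1 depends on the offset.

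Inside the cell, beta-catenin itself did not pass: Ctnnb1 read 11330.5, 12405 and 12816 in WT and 10740.5, 11198 and 12858 in CNOT3KO, with a 95% interval of -0.31 to 0.17. Tcf7l2, the TCF factor that pairs with it, read 1154, 1351 and 1561 in WT and 987, 810.2 and 965 in CNOT3KO. The groups did not overlap (log2 -0.54, SE 0.14, limma adjusted p = 0.0115), and a second probe set, at 633, 727 and 679 in WT and 358, 360.3 and 354 in CNOT3KO, was called lower too (log2 -0.88). The third, at -0.29, did not pass. Lef1 was not tested, its WT mouse 1 reading 108 beside values between 31.3 and 44.1 on the other arrays.

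Axin1, the scaffold of the destruction complex, read 457, 598 and 527 in WT and 686, 659.8 and 680.0 in CNOT3KO. The groups did not overlap, and the difference only just passed (log2 0.35, SE 0.13, limma adjusted p = 0.0497). The call of Axin1 was lost under most alternatives, among them leaving out any 1 mouse other than WT mouse 2 (log2 0.26 to 0.37). Axin2, its relative and a widely used readout of beta-catenin signalling, read 399, 485 and 282 in WT and 193, 311 and 206 in CNOT3KO. Here CNOT3KO mouse 2 exceeded WT mouse 3 (log2 -0.66, SE 0.22, limma adjusted p = 0.0399), and the call was lost without WT mouse 1 (-0.63), WT mouse 2 (-0.50), CNOT3KO mouse 1 (-0.54) or CNOT3KO mouse 3 (-0.59). It was also lost when both probe sets were averaged (-0.36), the other reading 11.96 or less on every array, without a filter and without a variance trend. Nkd1, another feedback inhibitor, did not pass (log2 0.11, 95% interval -0.40 to 0.61). Its 4 tested probe sets disagreed, at 0.11, 0.21, -0.32 and -0.55, and none was called. The last of these read 64.3, 50.2 and 88.8 in WT and 32.4, 37.5 and 45.0 in CNOT3KO, without overlap (limma adjusted p = 0.0963). Nkd2 was not tested.

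**Figure D3:**
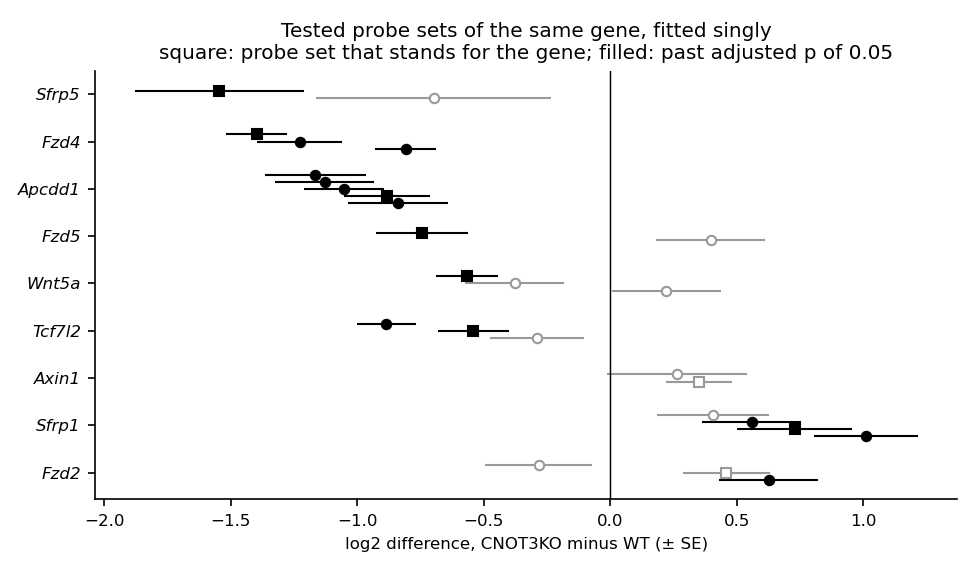
Log2 difference ± SE for each tested probe set of 9 members with more than 1, fitted singly; squares mark the probe set that stands for the gene and filled symbols passed an adjusted p of 0.05. Probe sets of Fzd4 and Apcdd1 are all filled and left of 0, though those of Fzd4 differ in size. Those of Fzd5, Wnt5a and Fzd2 lie on both sides of 0. The square of Axin1 is open, its limma adjusted p being 0.0584 when probe sets are fitted singly.

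The 13 calls were unequal in how they held. Over the 16 alternatives in processing, 4 members kept their call wherever they were tested: Fzd4 (log2 between -1.51 and -1.14), Apcdd1 (-1.13 to -0.71), Tcf7l2 (-0.73 to -0.44) and Wnt11 (-1.21 to -0.60), the last not being tested with the filter at the 60th percentile. The other 9 lost it under at least 1. None of the 13 changed direction under these alternatives, although single probe sets of Fzd5 and Wnt5a did, as given above.

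**Figure D4:**
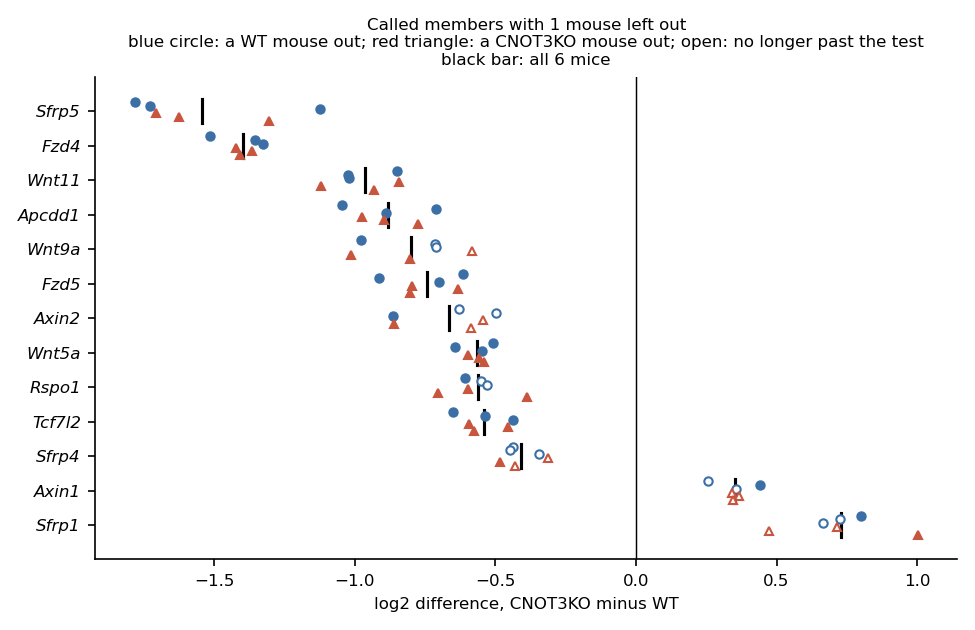
Log2 difference of the 13 called members with all 6 mice (black bars) and with 1 mouse left out (blue circles, a WT mouse; red triangles, a CNOT3KO mouse); open symbols no longer pass an adjusted p of 0.05. All points stay on their side of 0, and Axin1, Sfrp4, Sfrp1 and Axin2 have the most open symbols.

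Other genes of the pathway were taken from lists made without the members, and 157 of their 163 genes were measured. Of 133 tested, 26 were higher and 28 lower, or 40.6% called beside the 40.1% of all tested genes. None of the 5 tested genes of Wnt secretion passed. Porcn, which adds the lipid to Wnt proteins, and Wls, which carries them to the surface, were among these.

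Of 18 tested co-receptors and surface regulators, 4 were higher (22.2%) and 4 lower (22.2%), beside 23.2% and 16.9% of all tested genes. Their median log2 difference was -0.10. Cthrc1, a secreted protein that favours signalling without beta-catenin, rose from 59.5, 55.3 and 71.4 in WT to 177, 205 and 163 in CNOT3KO (log2 1.27). Tpbg, a membrane glycoprotein, read 23.8, 40.3 and 43.4 in WT and 113, 91.7 and 83.6 in CNOT3KO and rose by 1.03 on the log2 scale. Its WT mean of 35.8 was under the 51.6 needed for a test, so Tpbg was tested only because of its knockout signal. Shisa2, which holds Frizzled receptors back inside the cell, fell from 148, 172 and 194 to 55.6, 39.96 and 32.2. Its CNOT3KO mean of 42.6 was under 51.6, so Shisa2 was tested only because of its WT signal. Tspan12, a partner of Fzd4 in Norrin signalling, fell from 6449, 4581 and 3011 to 2462, 2254 and 2319, with the WT mice far apart. The remaining calls here were rises of Ror1 and Atp6ap2 and falls of Tmem88 and Reck.

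Of 28 tested genes of the intracellular signal and destruction complex, 5 were higher (17.9%) and 6 lower (21.4%), beside 23.2% and 16.9% of all tested genes. Dixdc1, a relative of Dishevelled, rose (log2 0.71), a call lost when its probe sets were averaged (0.35), while the kinase gene Csnk1e (-0.77) and the Dishevelled-binding genes Cxxc5 (-0.80) and Cxxc4 (-0.95) fell. The call of Cxxc4 ended when WT mouse 1 (-0.80), WT mouse 2 (-0.92), CNOT3KO mouse 1 (-0.996) or CNOT3KO mouse 3 (-0.62) was left out. With a CNOT3KO mean of 39.1, under the 51.6 needed, Cxxc4 was tested only because of its WT signal. Among 22 nuclear partners of beta-catenin, 4 were higher (18.2%) and 6 lower (27.3%), beside the same shares of all tested genes. Sox17, an endothelial factor that can bind beta-catenin, fell from 1709, 1638 and 1529 to 775, 779.8 and 651, and Tcf7l1, a repressing TCF factor, fell by 0.71 on the log2 scale. The corepressor gene Tle4 (0.80) and Cby1 (0.66), whose product sequesters beta-catenin, rose, the call of Tle4 being lost when its probe sets were averaged (0.15).

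Of 17 tested genes of the planar polarity branch, 1 was higher (5.88%) and 5 lower (29.4%), beside 23.2% and 16.9% of all tested genes. Celsr2, a polarity cadherin, fell from 317, 585 and 342 to 158, 117 and 132, and Prickle1 fell (log2 -0.49) while its relative Prickle2 rose (0.53). Prickle1 was no longer called when its probe sets were averaged (-0.31), nor when WT mouse 2 (-0.47), WT mouse 3 (-0.47), CNOT3KO mouse 1 (-0.43) or CNOT3KO mouse 3 (-0.42) was left out. The call of Prickle2 ended with WT mouse 2 (0.51), WT mouse 3 (0.44) or CNOT3KO mouse 1 (0.51) left out. Daam1 (log2 -0.46) turned to 0.08 when its probe sets were averaged. Leaving out WT mouse 1 (-0.30), WT mouse 2 (-0.48) or a single CNOT3KO mouse, whichever it was (-0.48 to -0.41), also ended its call. In the calcium branch 2 of 19 were higher (10.5%) and 3 lower (15.8%), beside the same shares of all tested genes. The phospholipase gene Plcb1 was up from 1357, 1217 and 1133 to 2675, 2434 and 3204. Prkcb rose (log2 0.70), and the calcineurin subunit gene Ppp3cb (-0.65) and Nlk (-0.60) fell.

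Genes known from other settings as Wnt targets were higher in 10 (38.5%) and lower in 4 (15.4%) of 26 tested cases, with a median log2 difference of 0.16. Among all tested genes 23.2% were higher and 16.9% lower. Ccn5, a secreted matrix protein known in adipose precursors, rose from 231, 229 and 167 in WT to 1491, 1616 and 1586 in CNOT3KO. Cd44, an adhesion receptor that macrophages also carry, rose from 925, 795 and 1008 to 3646, 4124 and 3125. Birc5, a gene of dividing cells, rose from 67.3, 70.2 and 54.5 to 294, 388 and 271, and Fosl1, an AP-1 factor, from 10.7, 26.7 and 44.3 to 140.1, 106 and 190.1. These were the 4 largest differences among the calls of the list. The other rises, with log2 differences between 0.93 and 1.21, were those of Ccn4, Fst, Myc, Vcan, Nrcam and Id2, and the falls were those of Zfp703 (-0.96), Jun (-0.82), Tnfrsf11b (-0.67) and Tcf4 (-0.65). Fosl1 and Ccn4 had WT means of 27.2 and 23.1, under the 51.6 needed for a test. They were tested only because of their knockout signal, and their folds depend on the offset. Ccnd1 and Znrf3 were among the 12 that did not pass, and Lgr5, Rnf43 and Sp5 were among the 9 that were not tested.

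**Figure D5:**
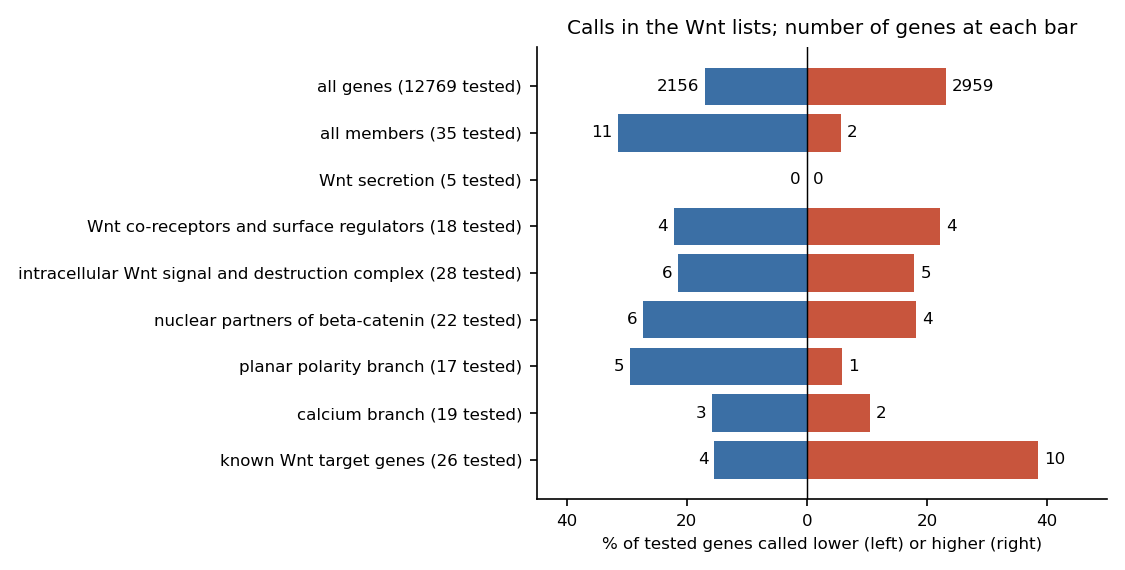
Percent of tested genes called lower (blue, left) and higher (red, right) in CNOT3KO for all genes, the members and 7 lists of other Wnt pathway genes, with the number of genes at each bar. The members have 11 lower and 2 higher genes, and the known targets 4 lower and 10 higher.

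Markers of several cell types moved in the same tissue, where 23.2% of all tested genes were higher and 16.9% lower. Macrophage markers were higher in 9 of 12 cases (75%), with a summed signal between 23125 and 29222 in WT and between 43507 and 62245 in CNOT3KO. None of them was called lower, but 2 had negative log2 differences, down to -0.71, and 1 had all knockout values below all WT values. Mesothelial markers were lower in 5 of 11 cases (45.5%), with sums of 6575 to 8234 in WT and 4157 to 5996 in CNOT3KO. Of 9 tested markers of smooth muscle and pericytes, 6 were lower (66.7%) and 2 higher (22.2%), with sums of 15345 to 21827 and 9603 to 11476. Markers of adipose progenitors and fibroblasts were higher in 4 (26.7%) and lower in 2 (13.3%) of 15, close to the shares of all tested genes. Their sums were 51806 to 61722 in WT and 63386 to 73327 in CNOT3KO. Adipocyte markers were lower in 3 of 10 cases (30%). Of 9 measured epididymis and testis markers 7 were too dim to be tested. Of the 2 tested, 1 was higher (50%) and none was lower. The summed signal of all 9 lay between 288 and 386 over all arrays. No marker was at 0, the lowest value in the table being 1. The part of these cell types in the changes of the Wnt genes was not tested.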

How the data were processed

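Sample titles gave the group and number of each mouse. The authors deposited 1 linear intensity per probe set and array, computed with MAS5 (named in the submitters' processing notes) from 500 ng of total RNA, per the labels' protocols; its version, settings and scaling target are not given here. Trimmed means differed by at most 0.0701% between arrays. MAS5 subtracts mismatch signal, which makes log values of dim probe sets noisy. No detection calls were used here.

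Of 45037 probe sets, 34945 had 1 gene name, 932 several and 9160 none in the platform annotation; Entrez numbers of 34741 were found in RefSeq (GRCm38.p6). The probe set with the highest mean over all 6 arrays stood for each gene, which was tested if that mean reached the 40th percentile (51.6). A gene under that level in 1 group could thus pass through the other group alone. Tpbg, Fosl1, Ccn4 and Wnt4 passed through CNOT3KO in this way, and Shisa2 and Cxxc4 through WT. The test was limma 3.58.1 in R 4.3.3 (lmFit, eBayes with trend) on log2(signal + 22.5), two-sided, with the 25th percentile of all values as offset, and was tested on simulated data. Each gene has 4 residual degrees of freedom besides what limma borrows. Python 3.11.15 was used for tables and plots. Every tested member is named, and of each other list up to 4 called genes with the largest change are named with values; others were chosen after their values were seen. Members and lists were chosen with earlier results of these data known. Alternatives covered the offset, filter, scaling, probe set choice, variance trend, mouse number as a block, and leaving out each array; fitting other probe sets singly was chosen after seeing the data. Nothing in the labels says that mice were littermates, or how RNA samples were ordered on arrays.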

Additional observations from a re-analysis of the deposited data

How the results depend on the processing

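The count of members that fell was 11, and between 10 and 11 under the other offsets, filters, scalings and variance model, with probe sets that can cross-hybridise avoided, and with the block. It was 6 with probe sets averaged, and between 7 and 11 with 1 mouse left out, lowest without WT mouse 2. The count of members that rose was 2. It was 1 with the larger offset, with centring on the median, with probe sets averaged and with the mouse number as a block. It was also 1 with no filter, where Wif1 replaced Sfrp1 and Axin1. Quantile normalization gave 3, where Axin1 was lost and Fzd2 and Wnt4 gained. Without a variance trend the count was again 2, but of Fzd2 and Wnt4 in place of Sfrp1 and Axin1. With 1 mouse left out it was between 0 and 1, the riser without WT mouse 3 being Wnt4. Beside the 0 without CNOT3KO mouse 1 or 2, limma still gave positive differences for Sfrp1 (0.71 and 0.47) and Axin1 (0.34 and 0.37). Of the genes called, directions turned for Daam1 with probe sets averaged (0.0786) and for single probe sets of Fzd5 (0.40) and Wnt5a (0.22); the cause was not tested. Of the 22 tested members that were not called, 12 changed sign under at least 1 alternative, among them Fzd2 (-0.28 with cross-hybridising probe sets avoided), Wnt7b (0.10 with probe sets averaged) and Sfrp2 (-0.42 without CNOT3KO mouse 2). Centring on the median gave 2318 higher and 2800 lower genes among all tested, against 2959 and 2156.

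Same-numbered mice shared deviations weakly (r = 0.07, 0.11 and 0.04 across genes), yet each mouse correlated best with its own number. Whether mice of the same number shared a condition was not tested. The labels name no pairs, and the main fit used none. With the replicate block 5092 genes were called against 5115, and of the members only Axin1 lost its call. Signals near the offset, as of Wif1, Lrp5 and most ligands, limit what can be seen of those genes.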

Other observations

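Fzd4, Tspan12 and Lrp5 encode the receptor, the tetraspanin partner and the co-receptor through which the ligand Norrin acts on vessel cells, and their values are set side by side here as a group chosen after they were seen. Fzd4 (log2 -1.40) and Tspan12 (-0.92) were both called lower, and Lrp5, too dim for the test, lay lower in all 3 knockout mice than in any WT mouse. The Norrin gene, Ndp, was too dim to be tested, at 25.2, 37.8 and 7.45 in WT and 26.3, 19.9 and 39.0 in CNOT3KO, with overlap. Endothelial markers were lower in the same arrays, as given above, and their part in these values was not tested.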
